A study of Mus musculus with 6 samples.

Results

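The 10 genes described here are core and output genes of the circadian clock, namely Arntl, Clock, Per1, Per2, Per3, Cry1, Cry2, Nr1d1, Nr1d2 and Dbp. They were chosen by symbol and by no rule on measured values, though with earlier results of these data known. They were followed through their Ensembl identifiers among 15441 genes with a value. RNA came from the ipsilateral cerebral cortex of male C57/BL6J mice, 6 to 8 weeks old, in which photothrombosis was induced by Rose Bengal and illumination of the skull, and which were taken on day 1, 3, 7, 14 or 28 after the stroke. The control mice had the sham operation and were taken 7 days after it. RNA of 3 mice was pooled at each time, so that there were 6 libraries with 1 library per group, and no difference below has a replicate check or a p-value. The hour at which the mice were killed is not given in the sources used here. Collection hour and day post-stroke therefore cannot be told apart for genes that cycle over the day. The whole ipsilateral cortex was taken, so fewer cells of a type and less RNA per cell cannot be told apart either.

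The molecular clock is a feedback loop of transcription. The proteins of Arntl (also called BMAL1) and Clock pair and activate genes that carry E-boxes, among them the Per and Cry genes, whose proteins enter the nucleus and repress that pair. In an interlocked loop, Nr1d1 and Nr1d2 encode the REV-ERB receptors, which repress Arntl through the element that they share with the ROR activators. Dbp encodes an activator that binds D-boxes. In rodent tissues the Per genes, Nr1d1 and Dbp peak largely opposite in phase to Arntl, and Per1 is also known to be induced by glucocorticoids and by neuronal activity.

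The 3 elements by which these genes are known to be wired to one another were looked for in RefSeq promoter windows of GRCm38.p6, which run from 250 bases before to 50 bases after each start. They were the E-box CACGTG, the D-box TTATGTAA or TTACGTAA, and the REV-ERB/ROR element TAGGTCA or TGGGTCA, each searched on both strands. Windows were found for 9 of the 10 genes, all but Per2. The 4 windows with a match are printed 5′ to 3′ on the gene's strand, since between them they show all 3 elements, and capitals mark the matches.
Per1, chr11:69098699-69098998, plus strand, E-box at position -166 from the start: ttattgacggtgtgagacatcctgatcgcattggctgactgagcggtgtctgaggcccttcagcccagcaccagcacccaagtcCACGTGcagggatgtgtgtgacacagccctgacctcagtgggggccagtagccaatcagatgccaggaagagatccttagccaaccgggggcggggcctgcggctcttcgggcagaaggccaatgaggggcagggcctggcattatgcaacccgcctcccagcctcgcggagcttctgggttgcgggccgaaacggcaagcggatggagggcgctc
Cry1, chr10:85185005-85185304, minus strand, E-box at position -60: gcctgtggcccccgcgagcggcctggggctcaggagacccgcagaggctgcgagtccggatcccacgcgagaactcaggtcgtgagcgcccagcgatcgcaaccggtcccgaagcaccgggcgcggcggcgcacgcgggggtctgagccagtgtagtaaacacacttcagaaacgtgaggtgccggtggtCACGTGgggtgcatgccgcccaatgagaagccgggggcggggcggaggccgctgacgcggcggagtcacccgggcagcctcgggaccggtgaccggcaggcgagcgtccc
Per3, chr4:151044616-151044915, minus strand, D-boxes at positions -205 and -158: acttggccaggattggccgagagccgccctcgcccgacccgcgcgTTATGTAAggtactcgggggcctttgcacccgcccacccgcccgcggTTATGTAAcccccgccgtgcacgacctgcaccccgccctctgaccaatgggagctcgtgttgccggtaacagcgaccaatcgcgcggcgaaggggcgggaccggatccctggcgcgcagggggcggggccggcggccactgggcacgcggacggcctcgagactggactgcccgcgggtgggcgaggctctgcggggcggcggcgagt
Arntl, chr7:113207261-113207560, plus strand, REV-ERB/ROR element at position 31: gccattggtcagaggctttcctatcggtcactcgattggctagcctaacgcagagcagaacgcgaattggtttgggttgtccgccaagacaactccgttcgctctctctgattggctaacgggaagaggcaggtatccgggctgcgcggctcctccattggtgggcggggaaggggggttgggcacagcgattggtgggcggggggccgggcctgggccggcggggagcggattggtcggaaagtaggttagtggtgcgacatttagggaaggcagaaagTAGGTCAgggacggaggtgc
Of all 32851 windows, 7.15% held the E-box, 1.06% the D-box and 6.45% the REV-ERB/ROR element. Per1 and Cry1 thus shared the E-box, Per3 held the D-box 2 times, and Arntl held the element of the receptors that repress it. The cAMP response element TGACGTCA, found in 1.79% of windows, and the palindromic glucocorticoid response element, found in 0.00913%, were in no window of these genes. These are matches of letters in short windows. The Per1 window belongs to the second of the starts described below.

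The deposited values were FPKM of transcript starts, transcript ends and splicing events, and the value of a gene was the largest of its summed starts, its summed ends and any single event. The 6 libraries held between 83501 (day 14) and 99187 (day 7) events. Per the labels the mean depth was 33.6 M reads, and that of single libraries is unknown. All 10 clock genes were listed in all 6 libraries. Day 14 stood apart, where 38 genes with a median of 5 FPKM or more elsewhere were not listed, and 2 to 7 such genes were missing from each other library. Among markers, the 10 neuronal genes summed to between 1723 FPKM on day 3 and 2320 FPKM on day 1, and none of them was past 2-fold at any day. The 8 genes of microglia and macrophages summed to 115 FPKM in control, 133 on day 1, 335 on day 3, 514 on day 7, 401 on day 14 and 131 on day 28. C1qa was at 42.5 FPKM in control and 259 on day 7, and Tyrobp at 21.5 and 146. Csf1r and Cd68 were also highest on day 7, and Aif1 on day 14. P2ry12, Tmem119 and Cx3cr1 did not follow the sum in this way. Tmem119 and Cx3cr1 were at 0 or below 2 FPKM in every library. P2ry12 was at 18.0, 7.01, 21.7, 17.7, 13.3 and 15.6 FPKM from control to day 28, with a log2 ratio of -1.35 on day 1. The 8 astrocyte genes summed to 927, 1014, 1603, 1321, 1255 and 964 FPKM from control to day 28, with Gfap at 85.8 FPKM in control and 698 on day 3. Gfap was the only 1 of the 8 past 2-fold, on day 1, 3, 7 and 14. Of the 8 genes, 6 were below control on day 1, 1 on day 3, 2 on day 7, 4 on day 14 and 4 on day 28. On day 3, when Dbp and Nr1d1 were lowest, 9 of the 10 neuronal genes were below control. The hypothalamic peptide genes Oxt and Avp were not listed in control and were listed in all 5 post-stroke libraries. The part of these differences in the clock values was not tested.

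A gene was called at a day when its log2 ratio to control, taken after adding 0.1 to each FPKM, was at least 1 in size, that is 2-fold. Of the 50 pairs of a clock gene and a day, 6 were called. On day 1, 1 of 10 clock genes was higher (Per1) and none lower, where 5.11% of 11790 genes were higher and 4.48% lower. On day 3 none was higher and 2 were lower (Nr1d1 and Dbp), where 8.54% of 12052 genes were higher and 2.53% lower. On day 7 none was higher and 1 was lower (Dbp), where 8.53% were higher and 2.12% lower. On day 14 none was higher and 1 was lower (Per3), where 8.97% were higher and 6.92% lower. On day 28, 1 was higher (Per2) and none lower, where 3.68% were higher and 2.79% lower. With 10 genes the counts are a description of these libraries. The median log2 ratio of the 10 genes was -0.04, -0.14, -0.05, -0.18 and 0.21 from day 1 to day 28 in order, where that of all genes compared was 0.01, 0.03, 0.03, 0.10 and 0.03. On day 1 the median of the 10 genes was 0.38 by starts alone and 0.16 by ends alone, so its sign depended on the events used. The calls were spread over 5 genes, and at this setting no day held clock genes called in both directions. By starts alone day 3 held both, and at a 1.5-fold threshold day 1, 3 and 14 did.

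**Figure D1:**
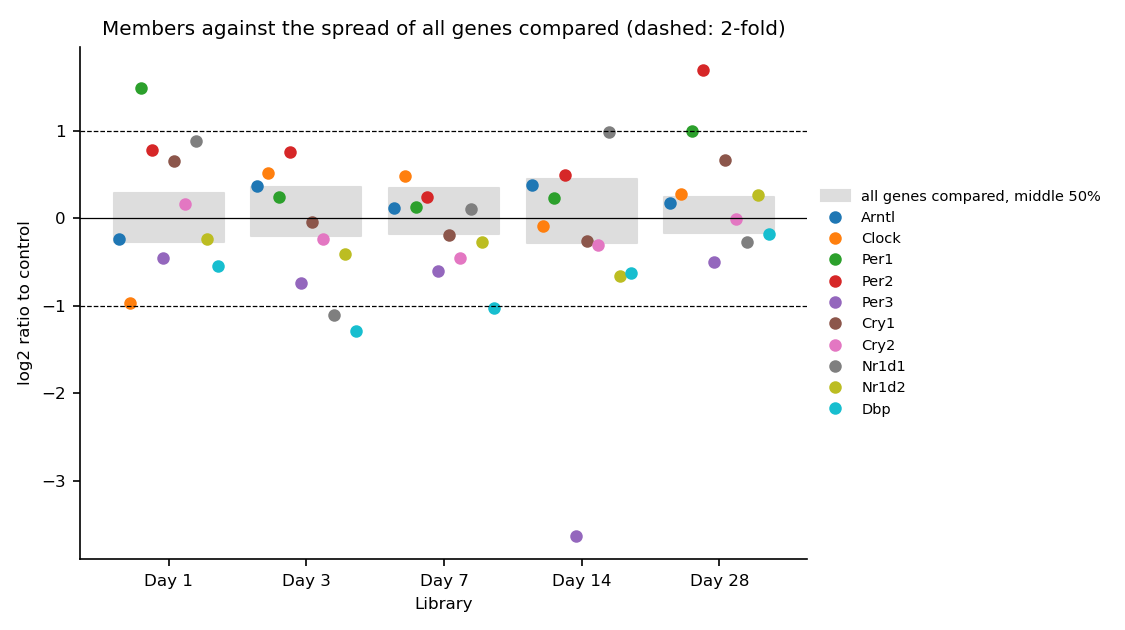
Log2 ratio to control (vertical axis) of each of the 10 clock genes at the 5 days (horizontal axis), 1 point per gene and day. Grey boxes span the middle 50% of all genes compared, and dashed lines mark 2-fold. Per1 on day 1 and Per2 on day 28 lie above the upper line, and Nr1d1 and Dbp on day 3, Dbp on day 7 and Per3 on day 14 lie below the lower one.

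Arntl and Clock, the activators, were listed at 6.24 to 9.62 and 4.08 to 11.6 FPKM. Clock was at 8.10 FPKM in control, 4.08 on day 1, 11.6 on day 3, 11.4 on day 7, 7.58 on day 14 and 9.81 on day 28. Its lowest level was thus on day 1, with a log2 ratio of -0.97, just inside 2-fold, and its highest on day 3. The end event of Clock alone gave -1.41 on day 1, and its start events gave -0.60. On day 14 no start of Clock was listed, and its value there rests on the end event.

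For Arntl the gene value hid opposite movements of its events. Its single start event was at 4.04 FPKM in control, 6.24 on day 1, 9.56 on day 3, 8.03 on day 7, 4.94 on day 14 and 5.29 on day 28. Its end event was at 7.39, 3.86, 2.07, 3.54, 9.62 and 8.33 FPKM in the same order. The start was highest on day 3, where the end was lowest, and the log2 ratio to control on day 3 was 1.22 by the start, -1.79 by the end and 0.37 by the gene value. No direction is given for Arntl on day 1, 3 or 7 for this reason.

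**Figure D2:**
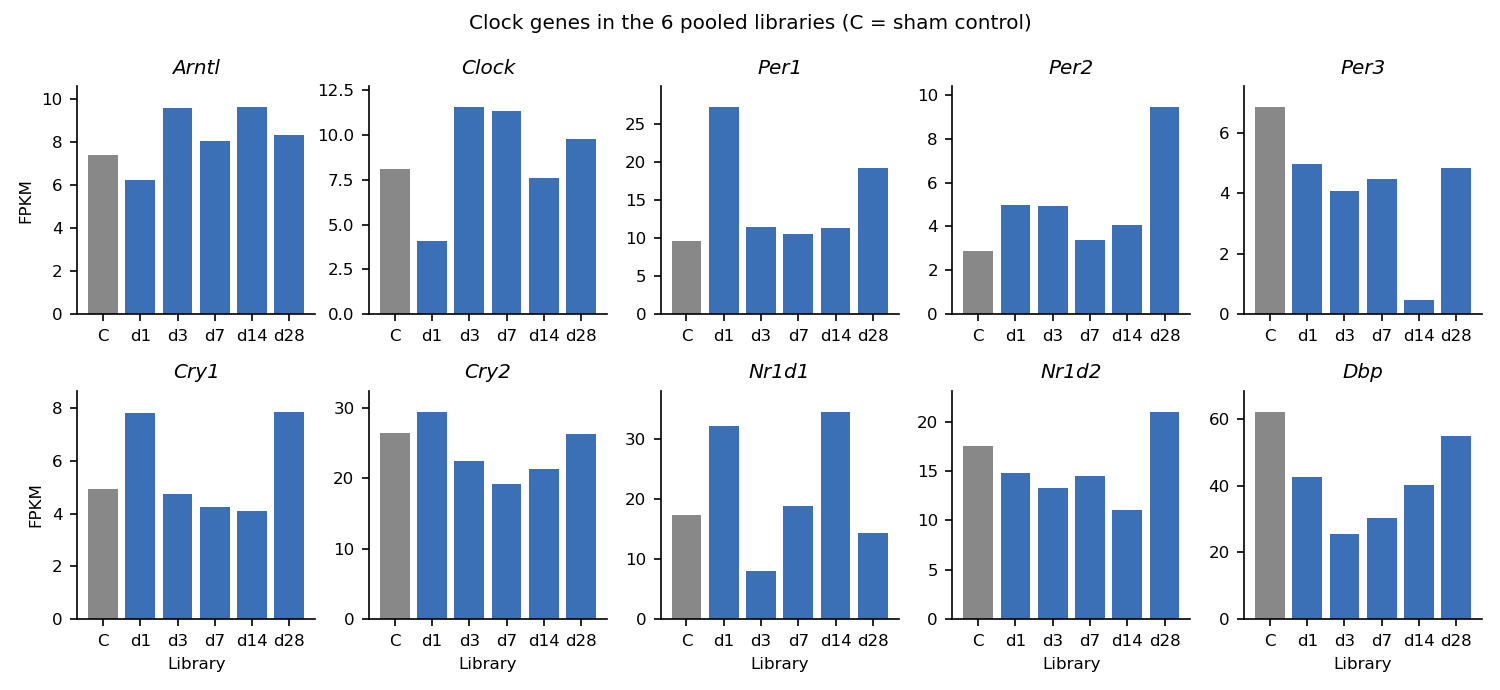
Level of each of the 10 clock genes (FPKM, vertical axis from 0, scale different for each gene) in the 6 pooled libraries, with the sham control (C) in grey and day 1 to 28 in blue. Each bar is 1 library of 3 pooled mice and has no error bar. Dbp is highest in control and lowest on day 3, and Per1 is highest on day 1 and next highest on day 28.

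Per1 (ENSMUSG00000020893, chr11:69095217-69109960) encodes a repressor of the loop and is its most readily induced member. It was at 9.63 FPKM in control, 27.2 on day 1, 11.4 on day 3, 10.6 on day 7, 11.3 on day 14 and 19.2 on day 28. Day 1 and day 28 were high, and the other 4 libraries lay close together. The log2 ratio was 1.49 on day 1, above that of 97.3% of genes compared, and 0.99 on day 28, just inside 2-fold and above that of 96.2%.

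The events of Per1 were also taken singly. The first start, chr11:69095217-69095303, was at 2.54 FPKM in control, 14.3 on day 1, 3.94 on day 3, 3.26 on day 7, 4.97 on day 14 and 8.21 on day 28. The second, chr11:69098948-69099008, which begins within 1 base of the RefSeq start of the printed window, was at 6.72, 12.6, 6.99, 7.14, 6.29 and 11.0 FPKM in the same order. The first start was higher in all 5 post-stroke libraries than in control and made up 27.4% of the Per1 starts in control, 52.6% on day 1 and 42.7% on day 28.

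On day 1 a form of Per1 that skips exon 17 was listed at 14.2 FPKM beside the form that includes it at 13.0, or 52.1% skipped. In the other 5 libraries the skipping form was not listed, and the including form was at 9.26 to 19.2 FPKM. The exon, chr11:69104634-69104813, is coding in the GENCODE M21 annotation and is 180 bases or 60 codons long, a length that by itself keeps the reading frame. On day 1 the events listed past exon 17, the end among them, were at 12.9 FPKM, near the including form alone. No event past the exon was listed at a level that would hold both forms. Whether the skipping form is a full transcript is therefore unknown. The first start, at 14.3 FPKM on day 1, was near the skipping form, and the second, at 12.6, near the end event. The share of the first start on day 1 may thus rest on the skipping form, which was not tested. The end event of Per1 was at 9.63 FPKM in control and 12.9 on day 1, a log2 ratio of 0.42. The call on day 1 thus ended when ends alone were used, whereas on day 28 starts and ends gave 1.05 and 0.98.

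**Figure D3:**
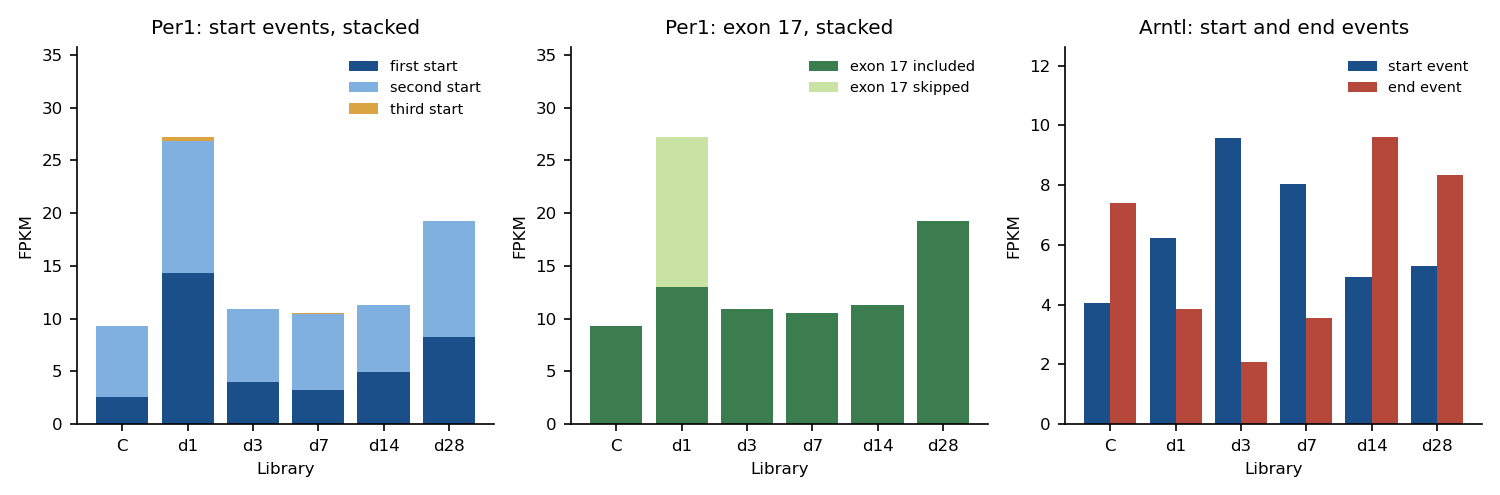
FPKM (vertical axis from 0) of single events in the 6 libraries, with Per1 starts stacked on the left, the forms of Per1 with and without exon 17 stacked in the middle, and the start and end of Arntl side by side on the right. The skipped form of Per1 appears on day 1, and the start and end of Arntl are in opposite order between control and day 3.

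Per2 (ENSMUSG00000055866, chr1:91415982-91459324), the partner of Per1 in the repressor complex, was at 2.87 FPKM in control, 5.0 on day 1, 4.92 on day 3, 3.39 on day 7, 4.07 on day 14 and 9.46 on day 28. All 5 post-stroke libraries were above control, and day 28 stood highest. The log2 ratio there was 1.69, above that of 98.5% of genes, and it was 1.41 by starts and 1.69 by ends. On day 14 no start of Per2 was listed.

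Per3 (ENSMUSG00000028957, chr4:151003652-151044665) is the family member least needed for the rhythm itself. Its gene value was 6.86 FPKM in control, 4.98 on day 1, 4.07 on day 3, 4.46 on day 7, 0.462 on day 14 and 4.83 on day 28. Control was highest, and day 14 was far below the rest, with a log2 ratio of -3.63. Only 3 events of Per3 were listed on day 14, against 8 or 9 in the other libraries, and neither event that begins at the printed promoter's start was among them. Day 14 is also the library in which most genes were missing. Corrected for the trend with transcript length, the ratio was -3.44. The end event of Per3 was much lower than its starts, at 0.218 FPKM in control, 0.582 on day 1, 0.554 on day 3, 0.0795 on day 7 and 0.672 on day 28, and was not listed on day 14. It was above control on day 1, 3 and 28, where the gene value was below control, so no direction is given for Per3 on those days.

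The cryptochromes, which complete the repressor complex, were steadier. Cry1 was at 4.92 FPKM in control, 7.81 on day 1, 4.76 on day 3, 4.27 on day 7, 4.09 on day 14 and 7.88 on day 28. As for Per1, day 1 and day 28 were above the other 4 libraries, with log2 ratios of 0.65 and 0.67. Cry2 was at 26.5, 29.5, 22.4, 19.2, 21.4 and 26.3 FPKM in the same order, a spread of 1.53-fold between its highest and lowest library. Over the 6 libraries, which share 1 control, the log2 levels of Per1 and Cry1 had a Pearson r of 0.91, the highest of the 45 pairs of the 10 clock genes. Cry1 and Cry2 followed with 0.82, then Per3 and Nr1d2 with 0.73, Per2 and Cry1 with 0.72 and Arntl and Clock with 0.72. The lowest r was -0.73, for Clock and Nr1d1. Those of Arntl and Per3 rest on gene values whose starts and ends disagreed. The sums also differed by up to 2.11-fold for Per1 (on day 1), 1.64-fold for Clock and 1.43-fold for Per2. The r of pairs with these 3 genes, the highest and the lowest among them, has the same limit.

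Nr1d1 (ENSMUSG00000020889, chr11:98767932-98775333), the REV-ERB alpha receptor, varied most after Per3. It was at 17.4 FPKM in control, 32.2 on day 1, 8.04 on day 3, 18.8 on day 7, 34.6 on day 14 and 14.4 on day 28. Day 3 was lowest, with a log2 ratio of -1.11, and day 1 and day 14 were highest, with 0.88 and 0.99. The level thus ran over a 4.30-fold range with no single direction after stroke. Its close relative Nr1d2 stayed within 1.90-fold, at 17.6, 14.8, 13.2, 14.5, 11.0 and 21.0 FPKM from control to day 28.

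Dbp (ENSMUSG00000059824, chr7:45705088-45710203), the D-box activator and the most abundant of the 10 genes per length, was at 62.3 FPKM in control, 42.5 on day 1, 25.4 on day 3, 30.4 on day 7, 40.4 on day 14 and 54.9 on day 28. Control was highest, day 3 lowest, and each library after day 3 was above the one before it. The log2 ratios were -0.55, -1.29, -1.03, -0.62 and -0.18. For Dbp and Nr1d1 the summed starts and summed ends were equal in all 6 libraries, so these gene values were the same by either sum. Single starts of Dbp differed, since the one at chr7:45707104-45708471 had log2 ratios of 0.18 on day 14 and 0.18 on day 28, and the most abundant one, chr7:45705088-45705762, had -0.93 on day 7, inside 2-fold. For Cry1, Cry2 and Nr1d2 both sums lay within 1.2-fold of each other in every library.

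Among 25 other genes of the clock pathway, 23 were listed in some library. Of the 22 compared on day 1, 2 were higher and none lower, and on day 3 none of 21 was higher and 1 was lower. On day 7, 1 of 22 was higher, and on day 14 and day 28 none of 21 was called. Of all genes compared, 5.11, 8.54, 8.53, 8.97 and 3.68% were higher from day 1 to day 28 in order. The shares lower were 4.48, 2.53, 2.12, 6.92 and 2.79%. Ciart, a repressor of the Arntl and Clock pair, was at 6.69 FPKM in control, 14.3 on day 1, 1.83 on day 3, 3.63 on day 7, 7.86 on day 14 and 8.61 on day 28. It was past 2-fold above control on day 1 (log2 ratio 1.08) and below it on day 3 (-1.81), and Nr1d1 was also above control on day 1 and lowest on day 3. Its RefSeq window held 3 E-boxes. The other calls were of Timeless, a gene of DNA replication named for its fly relative, at 0.278 FPKM in control, 1.14 on day 1 and 1.63 on day 7. Tef and Hlf, which encode D-box activators related to Dbp, had their highest log2 ratios on day 28, 0.25 and -0.14. Bhlhe40, an E-box repressor, was at 19.8, 32.8, 14.5, 20.6, 21.4 and 18.4 FPKM from control to day 28.

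**Figure D4:**
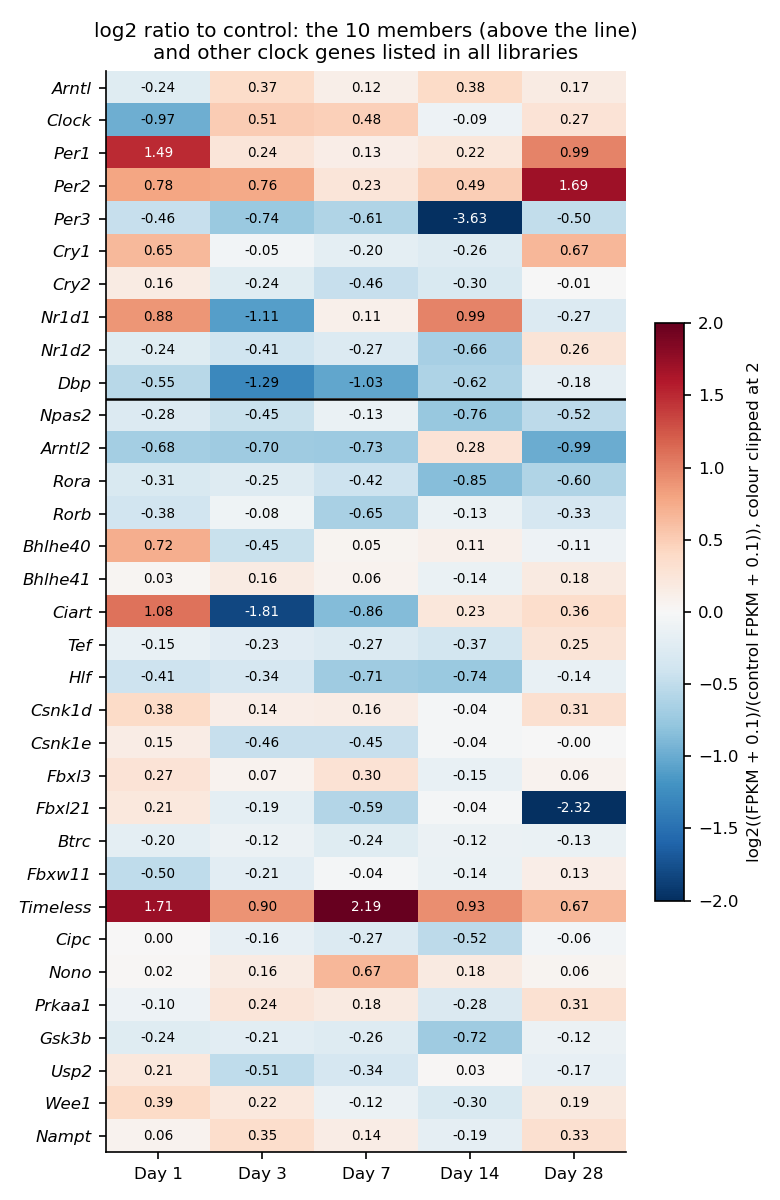
Log2 ratio to control of the 10 clock genes (above the line) and of the other clock pathway genes listed in all 6 libraries (below it), with 1 column per day and the value printed in each cell. Colour runs from blue (lower than control) to red (higher) and is clipped at 2. Nr1d1, Dbp and Ciart are blue on day 3, and Fbxl21, at -2.32 on day 28, was below the 1 FPKM needed to be compared.

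With collection hour in view, clock genes were split into a day-phase group and a group of the opposite or a later phase. The first held 6 genes (Per1, Per2, Per3, Nr1d1, Nr1d2 and Dbp) and the second 4 (Arntl, Clock, Npas2 and Cry1). Nfil3, also of the second group, was not listed. The mean log2 ratio of the first group was set against that of the second. The difference was 0.53 on day 1, -0.52 on day 3, -0.31 on day 7, -0.35 on day 14 and 0.18 on day 28. On day 3 it was made of -0.42 for the first group and 0.10 for the second. It rested on single genes at 2 days, since without Per3 it was 0.27 on day 14 and without Per2 it was -0.09 on day 28. It was 0.02 on day 3 by end events alone. By gene values the first group was split in direction at every day, with 2 of its 6 genes above control on day 3 and 3 of 6 at each other day. These counts and the contrast also use the gene values of Per3 and Arntl on the days for which no direction is given above. Whether collection hour differed between the libraries, or whether the genes of a group peak at the same hour, was not tested by these values.

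Per1 was set beside genes known to be raised by glucocorticoids, because it is one of them. Of 12 such genes, 9 were higher on day 1, 2 on day 3, 2 on day 7, 3 on day 14 and 5 on day 28. Of all genes compared, 5.11, 8.54, 8.53, 8.97 and 3.68% were higher in the same order. The median log2 ratios of the 12 genes were 1.24, 0.61, 0.51, 0.29 and 0.86. None was lower on day 1 or day 7, and 1 was lower at each of the other days, namely Arrdc2, not listed on day 3 and day 28, and Zbtb16 on day 14. Fkbp5, which encodes a co-chaperone of the glucocorticoid receptor, was at 7.72 FPKM in control, 23.2 on day 1, 10.3 on day 3, 9.55 on day 7, 9.08 on day 14 and 15.9 on day 28. Tsc22d3, which encodes the leucine zipper protein GILZ, was at 16.3, 38.3, 13.7, 16.7, 18.8 and 25.2 FPKM in the same order. Both were highest on day 1 and next highest on day 28, as was Per1 by its gene value. The end event of Per1 alone was highest on day 28, at 19.1 FPKM, with 12.9 on day 1. Of the 12 genes, 6 were highest on day 1 and next highest on day 28. The share of all genes with this order was not counted. Of the other 6, Cdkn1a, Nfkbia and Arrdc2 were highest on day 1 but not next highest on day 28, Pdk4 and Mertk were highest on day 3, and Sult1a1 was highest on day 28. Among immediate early genes, which neuronal activity induces, 8 of 12 were listed, with 7 compared on day 1 and 8 at each later day. Of these, 2, 3, 2, 0 and 5 were higher from day 1 to day 28 in order, with none lower.

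**Figure D5:**
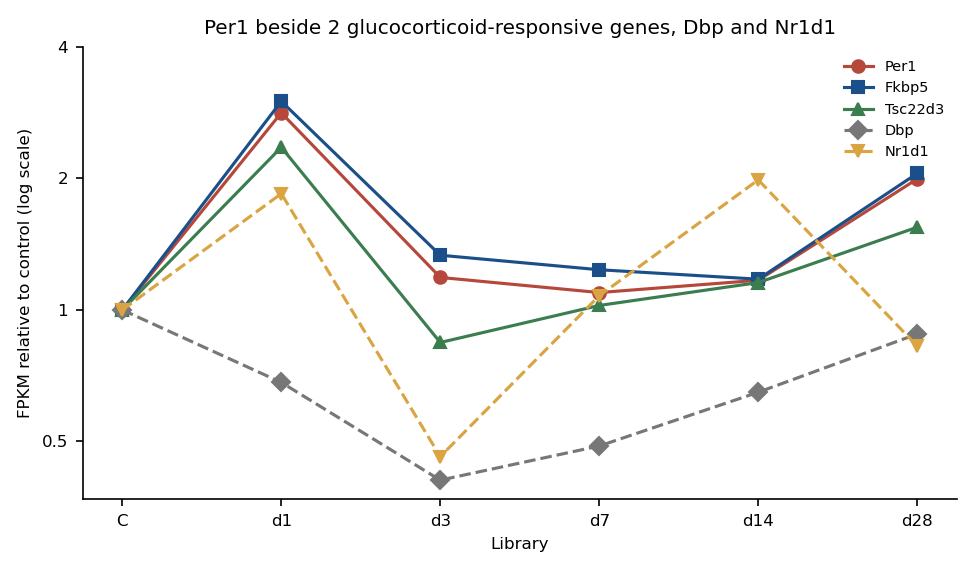
Level of Per1, Fkbp5 and Tsc22d3 (solid lines) and of Dbp and Nr1d1 (dashed lines) relative to control, on a log axis, in the 6 libraries (horizontal axis, C for the sham control). Each point is 1 library, and lines join libraries for reading only. Per1 and Fkbp5 lie close together throughout, while Dbp stays below control.

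Over the 6 libraries, the mean log2 level of the 6 day-phase genes was compared with that of 2347 genes. These were at 1 FPKM or more in all 6 libraries and had a range of at least 1 on the log2 scale. The most alike were Rhbdl3 (Pearson r 0.993), Ap2a1 (0.968), Tlcd1 (0.930), Alg13 (0.914) and Apba2 (0.907). No other clock gene was among these 5. The mean includes Per3 on day 14, at 0.462 FPKM, and the day 1 value of Per1, which rests on starts. For Per1 alone, a profile chosen once its values were known, the most alike were Fkbp5 (0.992), Map2k6 (0.985), Cdr2 (0.969), Errfi1 (0.968) and Dusp5 (0.964), and 7 genes had an r of at least 0.95. Fkbp5 was first of the 2347 genes, and it was second by start events alone (0.990) and after the length correction (0.983). By end events alone, where the call of Per1 on day 1 was lost, Fkbp5 was not among the 1768 genes compared and no r could be computed. With 6 libraries that share 1 control and, for Per1, 1 high value, such likeness is a description of these libraries. For Dbp alone no gene reached 0.95, and for Nr1d1 alone 11 did, with Pafah1b3 first (0.994).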

How the data were processed

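The deposited values were the authors' FPKM, given for each transcript start, transcript end and splicing event, with events at 0 left out. The submitters' processing notes name Trimmomatic 0.30, HISAT2 2.0.1 and HTSeq 0.6.1 and the mm10 build, without saying which made the FPKM tables. Poly(A) RNA was made into strand-specific libraries and read from both ends over 150 bases. Since FPKM keep no record of depth, no interval or detection floor is given. A gene's value, built here, was the largest of its summed starts, summed ends and any single event, a lower bound on its FPKM. Genes at 1 FPKM or more in either library of a pair were compared on the scale log2((FPKM + 0.1)/(control FPKM + 0.1)), which understates the change of low genes, with 2-fold as the threshold and no test. Annotation was GENCODE M21 (GRCm38), and 93.3% of events lay inside their gene's span. All 10 clock genes are named, with other clock genes past the threshold or wide in range and the 5 genes most alike. The genes, lists and this construction were chosen with earlier results of these data known. The calculation was tested on simulated data. The tools were pandas 2.3.3, numpy 2.4.6 and scipy 1.17.1 in Python 3.11.15, with matplotlib 3.10.9 for plots.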

Additional observations from a re-analysis of the deposited data

How the results depend on the processing

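With 1 library per group, no alternative could leave out a replicate. No paired analysis was possible because each group has 1 library and the results come from no test. Besides other event sums, the pseudocount, the filter, centring on the median, events inside the span, the length correction and a 1.5-fold threshold were tried. Of 90 medians and contrasts recomputed, 8 changed sign, namely 2 medians (both on day 1) and 6 contrasts. Of 90 counts recomputed, 16 differed from the reported count. Medians and contrasts that moved by over 0.209 on the log2 scale are given here, with all counts that differed. This limit is the median size of the log2 ratio over all genes on day 28. Ratios of single genes that moved are not all listed. After the length correction Clock on day 1 was at -0.69 against -0.97, and Dbp on day 14 at -0.94 against -0.62. By start events alone, the median on day 1 was 0.38. The contrast between the phase groups was then 0.18 on day 1, -0.76 on day 3 and -0.52 on day 7. By the same events 1 gene was higher on day 3, 3 lower on day 14 and 2 higher on day 28. By end events alone, 0 genes were higher and 1 lower on day 1, 3 were lower on day 3, 2 on day 7 and 0 on day 14, and the contrast was 0.0217 on day 3, 0.0211 on day 7 and 0.22 on day 14. At 1.5-fold, 4 genes were higher and 1 lower on day 1, 1 higher and 3 lower on day 3, 2 lower on day 7, 1 higher and 3 lower on day 14, and 3 higher on day 28. Without 1 gene, the contrast was 0.27 (Clock left out) or 0.81 (Cry1) on day 1, -0.76 (Per2) on day 3, -0.65 (Nr1d1) or 0.27 (Per3) on day 14 and -0.0892 (Per2) on day 28. With Nr1d1, Dbp and Ciart against Arntl and Npas2, chosen once the values were known, it was -1.36 on day 3, -0.59 on day 7 and 0.39 on day 14. The contrast thus changed sign between settings on day 3, 7, 14 and 28. The cause was not tested. How the authors' processing decided which events were listed is not given in the sources used here, and without read counts the precision of single events is unknown.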
